A study of Sus scrofa with 28 samples.

Results

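The genes examined here encode the proteasome and its dedicated helpers, in lung tissue of pigs that had inhaled sulfur mustard vapor. Members were the genes for which the annotation of the porcine array gave exactly 1 symbol beginning with PSMA, PSMB, PSMC, PSMD, PSME, PSMF or PSMG on a probe set, and the probe set with the highest mean signal stood for a gene. This gave 40 genes on 46 such probe sets, out of 6765 genes with a single symbol and 23999 probe sets tested. Of the 40, 36 were constitutive members and 4 were immune members (PSMB8, PSMB10, PSME1 and PSME2). PSMB9, the remaining immune subunit, had no probe set under its symbol alone and is not analysed here, and neither are PSMA8, PSMB11, PSMC3IP, PSMC4, PSMD7, PSMD9, PSMG2 and PSMG4. Medium-dose animals (34, 39, 41 and 42) inhaled 100 µg/kg of sulfur mustard (HD), a blistering agent that alkylates DNA and protein. Low-dose animals (31, 32 and 33) inhaled 60 µg/kg, and control animals (28, 29 and 44) breathed air. All were female swine, fasted for 12 h beforehand, anesthetized, intubated and held supine, and lobes of the left lung were taken 12 h after an exposure of 10 min. The 28 arrays covered the apical, median and caudal lobes of 10 animals, without a caudal array for medium animal 39 or an apical array for medium animal 41.

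The proteasome is the main protease of the cytosol and nucleus. Its core particle is a barrel of alpha and beta rings whose inner beta subunits cut proteins, and its regulatory particle binds ubiquitin-tagged proteins, removes the tag and unfolds them with a ring of ATPases. Interferon and cells of the immune system bring in alternative catalytic subunits and the PSME1 and PSME2 cap, which alter the peptides offered on MHC class I. In whole lung, a level is a sum over epithelial, vascular, stromal and immune cells, so that fewer cells of a type and less RNA per cell cannot be told apart.

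Values are normalised signals, as 1 value per animal with lobe differences removed, and differences are log2 differences of signal plus 16, with the standard error from limma. A call means an adjusted p under 0.05 after Benjamini-Hochberg adjustment over all 23999 probe sets. The arrays, scaled before deposit to a common mean, had median signals of 55.6 to 64.4 and mean correlations with the other arrays of 0.968 to 0.982. The lowest correlations, 0.968 to 0.972, were those of the arrays of medium animals 39 and 41. Mean signals of the members ranged from 75.6 for PSMG3 to 1674 for PSMA7, and they are not compared between genes. Surfactant genes, which define the lung, were bright: summed signals of 5 measured alveolar type 2 markers were 6884 to 8432 in medium, 8494 to 8866 in low-dose and 7094 to 8640 in air animals.

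The first question was whether the exposure altered proteasome genes. At the medium dose, the deubiquitinase PSMD14 and the lid subunit PSMD12 stood above air in every animal, the catalytic subunit PSMB5 stood below it, and the immune members had lower means, but no member was called. The call rate over all probe sets was 0.129% for medium against air, 0% for low against air and 0.00417% for medium against low, and 0 of 40 members were called in each. At an unadjusted p under 0.05, 5 of 36 constitutive members were higher at the medium dose, against 8.2% of all probe sets, and 1 was lower, against 8.37%. Among the 11999 brighter probe sets the shares were 8.83% higher and 10.5% lower. The median difference of the 36 constitutive members was 0.06 for medium minus air, with 27 above 0, while the median over all probe sets lay within 0.01 of 0 and 49.9% were above 0. The median of the constitutive members was 0.02 without medium animal 34, 0.10 without medium animal 39, and 0.14 over the 8 animals with all lobes.

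**Figure D1:**
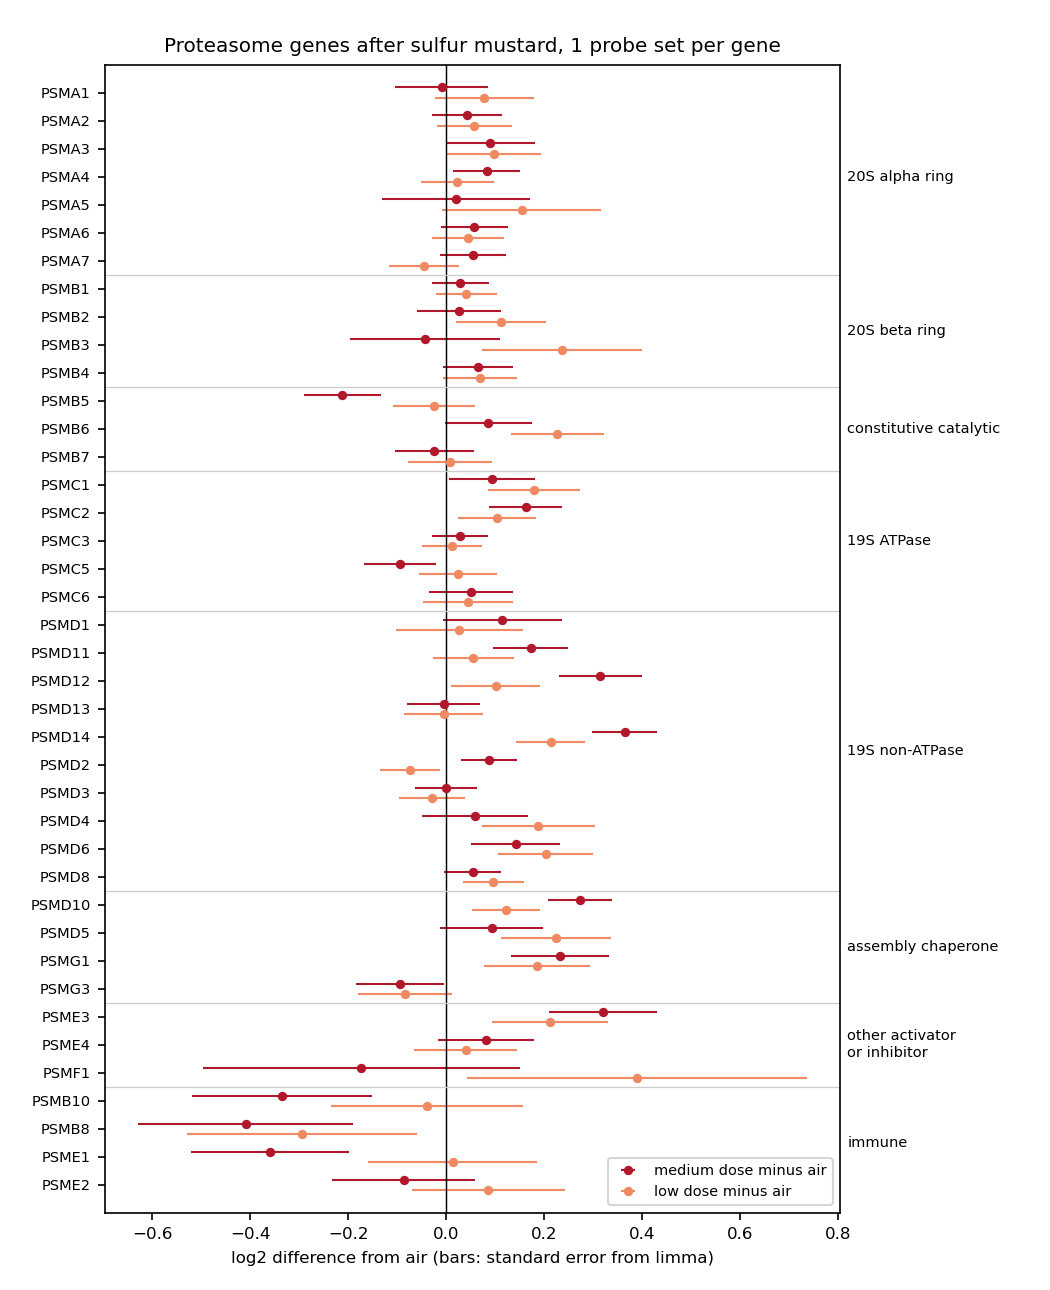
Log2 differences from air (x axis) of the 40 members, 1 row per gene, grouped by role; red points are medium minus air and orange points low minus air, and bars are standard errors from limma. PSMD14, PSME3, PSMD12 and PSMD10 lie farthest to the right at the medium dose, at 0.36, 0.32, 0.31 and 0.27, and the immune members PSMB8, PSME1 and PSMB10 lie farthest to the left.

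In the low-dose animals the median difference from air was 0.07, with 30 of 36 constitutive members above 0, against 48.4% of all probe sets. An index of RNA quality, the average over actin and GAPDH controls of log2 signal at the 3′ end over that at the 5′ end, averaged 0.29 in low-dose animals and 0.63 in air animals (exact permutation p = 0.2, two-sided, where 20 splits cannot reach 0.05). With this index as a covariate, the median difference of the constitutive members was 0.03. An unadjusted p under 0.05 was reached by 2 members on the higher side (PSMD14 and PSMB6) and 0 on the lower, against 3.54% and 3.87% of all probe sets. In 13 of 36 constitutive members all 3 low-dose animals lay above all 3 air animals, against 9.23% of all probe sets. Both dose comparisons used the same 3 air animals. Directly compared, medium minus low had a median of -0.01 over the constitutive members, with 17 above 0. At an unadjusted p under 0.05, 4 were higher (PSMD2, PSMD10, PSMD12 and PSMD14) and 1 was lower (PSMB5), against 9.76% and 8.46% of all probe sets.

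The 7 alpha-ring genes, which form the outer rings and the gate of the core, differed little from air at the medium dose. Their medium minus air differences ran from -0.01 for PSMA1 to 0.09 for PSMA3, with 6 above 0. The 4 non-catalytic beta-ring genes ran from -0.04 for PSMB3 to 0.06 for PSMB4. None of these 11 genes had medium and air animals apart. Low minus air ran from -0.04 to 0.15 in the alpha ring and from 0.04 to 0.24 in these beta-ring genes. In PSMA1, PSMA5, PSMB2 and PSMB4 all low-dose animals lay above all air animals, an arrangement found in 9.23% of all probe sets.

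The 3 constitutive catalytic subunits differed in the direction of their means. PSMB5, which carries the chymotrypsin-like activity, had signals of 758, 747, 618 and 689 in medium animals 34, 39, 41 and 42, against 830.3, 819 and 793 in air animals 28, 29 and 44. Every medium animal lay below every air animal, and the low-dose animals had 827, 794 and 779, above all medium animals. Its medium minus air difference was -0.21 ± 0.08 (adjusted p = 0.223), and with a random animal effect over all arrays it was called at -0.21 ± 0.06 (adjusted p = 0.0478). That fit, on arrays rather than animal values, called 1044 of 23999 probe sets, against 31 in the main fit. It was the single constitutive member whose medium animals all lay below air, an arrangement found in 6.6% of all probe sets.

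PSMB6, the caspase-like subunit, had 1218, 929.7, 1023 and 1057 in medium animals and 939.8, 1003 and 1029 in air animals, which overlapped. The low-dose animals, at 1127, 1159 and 1198, all lay above the air animals, with a low minus air difference of 0.23 ± 0.10 (adjusted p = 0.666). PSMB7, the trypsin-like subunit, had 1041, 964, 824 and 932 in medium animals and 987, 948 and 926 in air animals. Its 95% interval for medium minus air was -0.20 to 0.16.

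Among the constitutive members, the largest medium minus air difference was in the regulatory particle. PSMD14, the metalloprotease that removes ubiquitin chains from substrates as they are engaged, had signals of 593, 616, 561 and 556 in medium animals, against 466, 431 and 448 in air animals. The low-dose animals had 534, 492 and 540.4, so that the groups followed the dose with no overlap. Medium minus air was 0.36 ± 0.07, or 1.29-fold (95% interval 0.22 to 0.51 on the log2 scale, adjusted p = 0.0717). Low minus air was 0.21 ± 0.07 (adjusted p = 0.653) and medium minus low 0.15 ± 0.07 (adjusted p = 0.267). Without medium animal 39, PSMD14 passed the threshold in medium against air at 0.34 ± 0.07 (adjusted p = 0.0498). With all arrays and a random animal effect, a fit that called 1044 of 23999 probe sets, it did so at 0.36 ± 0.08 (adjusted p = 0.0162). These were the 2 calls of PSMD14 among 17 alternatives. Fits that left out an animal varied widely in the number of probe sets called, as given at the end.

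PSMD12, a scaffold subunit of the lid, had 357, 298, 361 and 354 in medium animals, against 284, 262 and 268 in air animals. Animal 39 was the lowest of the medium animals and still lay above all air animals. The low-dose animals, at 308, 267 and 303, overlapped the air animals. Medium minus air was 0.31 ± 0.08 (adjusted p = 0.129), and it was called without medium animal 39 at 0.38 ± 0.07 (adjusted p = 0.0462). It was also called with a random animal effect, a fit that called 1044 of 23999 probe sets, at 0.32 ± 0.09 (adjusted p = 0.0407). As for PSMD14, these were the 2 calls among 17 alternatives.

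Over the 10 measured lid and base genes other than ATPases, medium minus air had a median of 0.10, with 8 above 0. It was -0.005 for PSMD13, -0.001 for PSMD3, 0.05 for PSMD8 and 0.06 for PSMD4. Some other lid or base genes were among those with the larger differences. PSMD11, a lid subunit, had 971, 880.4, 992 and 968 in medium animals and 779.9, 825 and 930.3 in air animals, which overlapped through air animal 44. PSMD6, also in the lid, had 727, 557, 667 and 692 in medium animals and 569, 615 and 599.8 in air animals. PSMD1, the scaffold that receives substrates in the base, had 789, 548, 689.5 and 630.0 in medium animals and 568, 589.9 and 667 in air animals. Their medium minus air differences were 0.17 ± 0.08, 0.14 ± 0.09 and 0.11 ± 0.12, with adjusted p of 0.302, 0.465 and 0.684. The dimmer probe sets of PSMD11 gave 0.19 ± 0.33 and 0.12 ± 0.20, and that of PSMD1 gave 0.13 ± 0.08.

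Of the 5 ATPases that were measured, PSMC2 had medium and air animals apart, at 514, 447, 447 and 487 in medium animals against 430.0, 419 and 414 in air animals. The difference was 0.16 ± 0.07 (adjusted p = 0.31). Its 2 dimmer probe sets gave 0.09 ± 0.10 and -0.06 ± 0.10, so the probe sets of this gene disagreed in direction. PSMC5 ran the other way, with 767, 645, 634 and 655 in medium animals and 716, 730.0 and 713 in air animals, where animal 34 alone exceeded the air animals. Its difference was -0.09 ± 0.07 (adjusted p = 0.561).

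**Figure D2:**
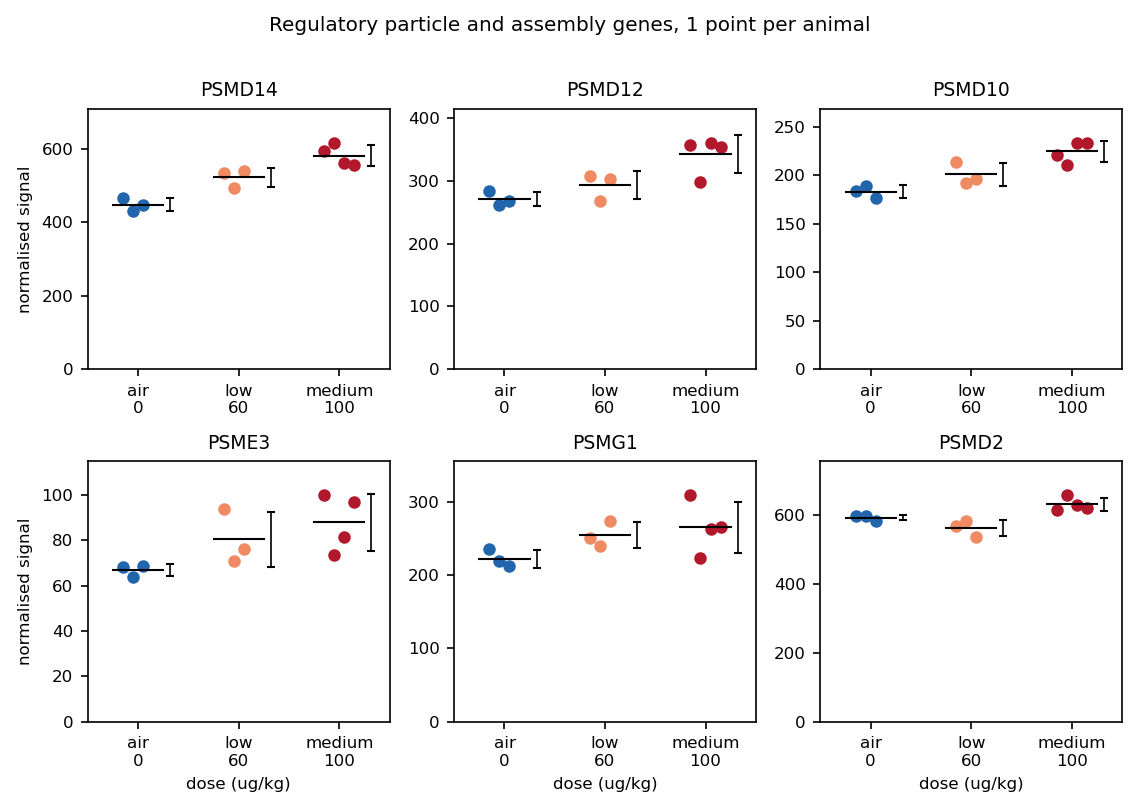
Normalised signal (y axis, from 0) of 6 genes by dose (x axis, µg/kg), 1 point per animal; lines are group means and bars the standard deviation over 3 air, 3 low-dose and 4 medium animals. PSMD14 steps up with dose without overlap, and in PSMD12, PSMD10, PSME3 and PSMD2 all 4 medium animals lie above the 3 air animals.

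Assembly helpers and alternative caps came next. PSMD10 (gankyrin), which escorts the ATPase ring during assembly, had 221, 211, 234 and 233 in medium animals, against 184, 189 and 176 in air animals, with no overlap. The difference was 0.27 ± 0.07 (adjusted p = 0.109), and the low-dose animals, at 214, 192 and 196, also lay above air. With a random animal effect, a fit that called 1044 of 23999 probe sets, PSMD10 was called at 0.27 ± 0.08 (adjusted p = 0.0499). PSMG1, a chaperone of alpha-ring assembly, had 309, 223, 263 and 266 in medium animals and 235, 219 and 212 in air animals, a difference of 0.23 ± 0.10 (adjusted p = 0.288). Animal 39 lay inside the air range.

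PSME3, the nuclear cap that opens the core without ubiquitin, had 99.9, 73.6, 81.7 and 96.9 in medium animals, against 68.1, 63.7 and 68.8 in air animals. The difference was 0.32 ± 0.11 (adjusted p = 0.199), and the low-dose animals, at 94.1, 70.9 and 76.3, lay above air as well. All 4 medium animals lay above all 3 air animals in 6 of 36 constitutive members (PSMC2, PSMD2, PSMD10, PSMD12, PSMD14 and PSME3), against 6.88% of all probe sets.

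PSMF1, described as an inhibitor of the core in vitro, varied widely among animals of a group. Its signals were 179, 54.5, 78.3 and 147 in medium animals and 103, 106 and 157 in air animals, with 176, 133 and 181 in low-dose animals. Medium minus air was -0.17 ± 0.32 (adjusted p = 0.84), and a dimmer probe set gave -0.13 ± 0.11. The PSMF1 difference changed sign with the animals included, at 0.39 over the 8 animals with all lobes and 0.09 without medium animal 39, against -0.41 without medium animal 34. The RNA quality index was 0.20, 1.42, 0.69 and 0.23 in medium animals 34, 39, 41 and 42, where higher values mean more signal toward the 3′ end. The medium animals with the lowest PSMF1 signal, 39 and 41, had the highest index. A fit with this index as a covariate was among 17 alternatives, none of which called PSMF1, and the part of the index itself was not tested. The index averaged 0.64 in medium animals and 0.63 in air animals (exact permutation p = 1, two-sided, 35 splits).

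The medium animals differed among themselves. Animal 34 had the highest signal of all 10 animals in 20 of 36 constitutive members, against 8.23% of all probe sets, and lay above the air mean in 33. Animals 39 and 41 were the highest in 18.6% and 17.0% of all probe sets and the lowest in 16.6% and 16.1%. Among the constitutive members they were highest in 5 and 4 and lowest in 7 and 8. The median over the constitutive members of the difference from the air mean was 0.23, 0.00, -0.003 and 0.06 in medium animals 34, 39, 41 and 42. The low-dose animals 31, 32 and 33 had 0.11, 0.07 and 0.08, and the air animals 28, 29 and 44 had 0.03, -0.01 and -0.02. PSMD14, PSMD12 and PSMD10 were above air in animals 39, 41 and 42 as well as 34.

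**Figure D3:**
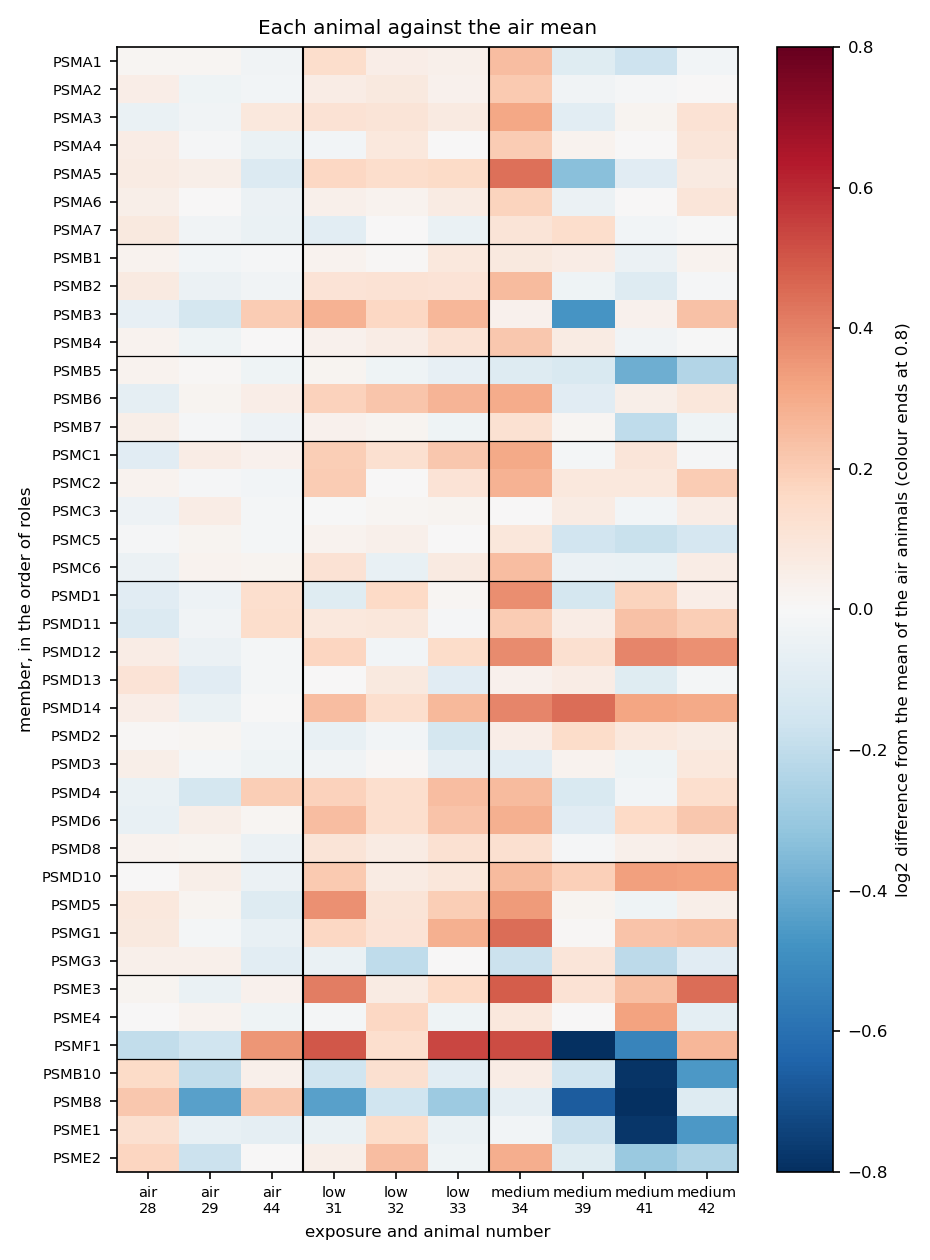
Log2 difference of each animal (columns, by rising dose) from the mean of the 3 air animals for the 40 members (rows, by role); red is above and blue below the air mean, and colours end at 0.8. Animal 34 is red in most constitutive rows, and animals 41 and 42 are blue in PSMB10 and PSME1.

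The immune members had lower means at the medium dose without passing the test. Their median difference was -0.35 for medium minus air and -0.01 for low minus air, and 0 of 4 reached an unadjusted p under 0.05 in either. The median was -0.20 without medium animal 41 and -0.14 over the 8 animals with all lobes. PSMB8, which replaces PSMB5 in the immunoproteasome, had 922, 606, 549 and 902 in medium animals, against 1130.1, 714 and 1127 in air animals. The low-dose animals had 714, 866 and 790.2. Air animal 29 lay well below the other air animals, and the groups overlapped there. Medium minus air was -0.41 ± 0.22 (95% interval -0.90 to 0.08, adjusted p = 0.381). It was -0.63 without air animal 29 and -0.09 over the 8 animals with all lobes.

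PSMB10, which replaces PSMB7, had 360.3, 307, 193 and 247 in medium animals and 386, 299 and 355 in air animals. Animals 41 and 42 lay below every air animal, and the difference was -0.34 ± 0.18 (adjusted p = 0.392), or -0.19 without medium animal 41 and -0.20 over the 8 animals. The low-dose animals had 307, 378 and 325.

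PSME1, a subunit of the interferon-induced cap, had 791, 713, 462 and 579.6 in medium animals and 879, 773 and 766 in air animals. The low-dose animals had 773, 894 and 774. Medium minus air was -0.36 ± 0.16 (adjusted p = 0.303), or -0.22 without medium animal 41, and medium minus low -0.37 ± 0.16 (adjusted p = 0.262). PSME2, the other cap subunit, had 906, 692, 599 and 623 in medium animals and 835, 654 and 741 in air animals, with 766, 879 and 721 in low-dose animals. Its difference was -0.09 ± 0.15, with a 95% interval of -0.41 to 0.24, and 0.02 over the 8 animals.

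**Figure D4:**
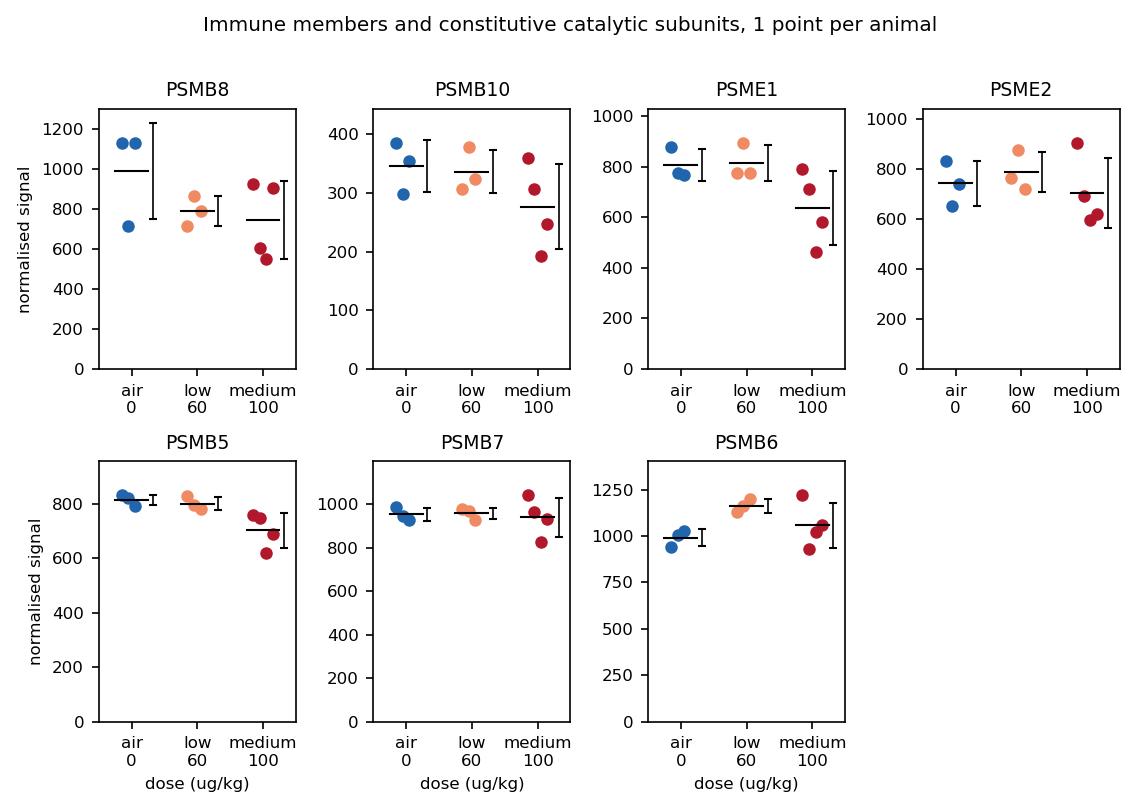
Normalised signal (y axis, from 0) of the 4 immune members and the 3 constitutive catalytic subunits by dose (x axis, µg/kg), 1 point per animal; lines are means and bars the standard deviation over 3 air, 3 low-dose and 4 medium animals. Medium and air points overlap in all 4 immune members and lie apart in PSMB5.

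The change of an immune subunit was set against that of the subunit it replaces. PSMB10 relative to PSMB7, as log2 change from the air mean, averaged -0.31 ± 0.23 in medium animals (SD, n = 4) and 0.00 ± 0.16 in air animals (SD, n = 3). PSMB8 relative to PSMB5 averaged -0.20 ± 0.33 in medium animals (SD, n = 4) and 0.00 ± 0.38 in air animals (SD, n = 3). In low-dose animals (SD, n = 3) PSMB10 relative to PSMB7 averaged -0.05 ± 0.15, and PSMB8 relative to PSMB5 -0.27 ± 0.17. By animal, PSMB10 relative to PSMB7 was -0.06, -0.18, -0.58 and -0.42 in medium animals and 0.11, -0.19 and 0.08 in air animals. These groups overlapped, and none of the differences was tested. In the RefSeq pig annotation (Sscrofa 11.1), PSMB8 lies between TAP2 and TAP1, and PSME1 and PSME2 lie on either side of EMC9.

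Summed signals of immune cell markers were set beside the immune members. The summed signal of 12 of 16 listed T and NK cell markers was 1781, 1218, 947 and 1368 in medium animals, against 2004, 1964 and 2107 in air animals, and 1515, 2413 and 2118 in low-dose animals. In this sum every medium animal lay below every air animal, an arrangement found in 6.6% of all probe sets. GNLY had the largest difference of the 12, with a mean signal of 210 in medium and 527 in air animals. Animal 41, lowest in all 4 immune members, was lowest in the T and NK cell sum and in the B and plasma cell sum. Animal 39 was lowest in the MHC class II and the macrophage and monocyte sums. The median difference of these 12 markers was -0.38 for medium minus air, with 11 below 0. The dimmest, PRF1, CD27 and CD4, had mean signals of 13.1, 18.6 and 21.2, well below the array medians of 55.6 to 64.4. The sum of 8 of 11 MHC class II and dendritic cell markers was 11762, 7463, 8798 and 9629 in medium animals and 10372, 10898 and 11359.6 in air animals, while the low-dose animals had 12279, 11886 and 12536, above every air animal. All low-dose animals lay above all air animals in 9.23% of all probe sets. The sum of 3 of 8 B and plasma cell markers was 1709, 1571, 1444 and 1602 in medium animals, against 1934, 1939.6 and 1839.8 in air animals, and 1655, 1626 and 1519 in low-dose animals, so that both doses lay below air. JCHAIN made up most of this sum, at a mean signal of 1594, against 55.7 for CD79B and 50.9 for TNFRSF17. All 3 markers had differences below 0 at both doses. Neutrophil markers, 4 of 8 measured, ran the other way, with a median difference of 0.23 for medium minus air and 3 above 0. Their sums were 1945, 2144, 1634 and 1953 in medium animals and 1611, 2008 and 1439 in air animals, which overlapped. S100A9, at a mean signal of 1524, made up most of these sums. Of 6 measured of 10 macrophage and monocyte markers, 5 were below 0 at a median of -0.17, and CD14 was at 0.82 ± 0.44. No marker of these 5 lists was called, and their part in the values of the immune members was not tested.

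Genes that work with the proteasome gave no call in medium against air. Of 7 measured genes among 15 listed as further proteasome parts and regulators, 6 were above 0 at a median of 0.10. PAAF1, which binds the free ATPase ring, was at 0.37 ± 0.10 (adjusted p = 0.129), and ZFAND2A, an arsenite-inducible proteasome-associated protein, at 0.23 ± 0.10 (adjusted p = 0.266). The ubiquitin precursors UBB and RPS27A, the 2 measured of 6, were both at 0.01 ± 0.05. Of 11 measured delivery genes among 20, 6 were above 0 at a median of 0.06, and SQSTM1, a receptor for ubiquitin-tagged cargo, was at -0.16 ± 0.11 (adjusted p = 0.495). The small heat shock protein HSPB1 was at 0.15 ± 0.10 (adjusted p = 0.501). Among 4 measured of 16 listed regulators of proteasome genes, TFE3 was at 0.20 ± 0.08 (adjusted p = 0.277) and FOXO3, dim at a mean signal of 21.5, at -0.17 ± 0.07 (adjusted p = 0.288).

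Of 7 measured MHC class I processing genes among 11, 3 were above 0 at a median of -0.03. The chaperone CALR was at -0.14 ± 0.09 (adjusted p = 0.497), and HM13, a signal peptide peptidase, at 0.19 ± 0.14 (adjusted p = 0.531). Of 17 measured interferon genes among 23, 5 were above 0 at a median of -0.06. STAT2, a transducer of type I interferon signals, was at -0.55 ± 0.17 (adjusted p = 0.17), and the antiviral gene MX1 at 0.71 ± 0.29 (adjusted p = 0.262).

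Position in the lung was the next question, tested within animals. Apical minus median lobe had a median of -0.08 over the constitutive members, with 33 of 36 below 0, while 48.7% of all probe sets were below 0. PSMD14 was called, at -0.23 ± 0.06 (adjusted p = 0.0495), as the 1 member of 40, against 2.38% of all probe sets. An unadjusted p under 0.05 was reached on the lower side by 11 of 36, against 7.47% of all probe sets, and on the higher side by 0, against 9.16%. The call of PSMD14 did not hold when any 1 of the 10 animals was left out, though the difference stayed between -0.26 and -0.18. The RNA quality index had a median of 0.45 over the apical, 0.31 over the median and 0.39 over the caudal arrays, and its part in the lobe differences was not tested.

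PSMD14 signals in medium animals 34, 39 and 42 were 519, 560.3 and 429 in the apical lobe and 648, 641 and 659 in the median lobe. In the low-dose animals they were 512, 411 and 495 in the apical lobe and 607, 522 and 514 in the median lobe. In air animals they were 475, 374 and 416 in the apical lobe and 467, 466 and 465 in the median lobe. The apical lobe was lower in 8 of 9 animals, air animal 28 being the exception.

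Apical minus caudal lobe had a median of -0.10, again with 33 of 36 constitutive members below 0. An unadjusted p under 0.05 was reached on the lower side by 14 of 36, against 6.81% of all probe sets, and 0 members were called, against 0.167%. Median and caudal lobes differed by a median of -0.02, with 0 members called and 0% of all probe sets. PSMB5 differed little between lobes, at -0.01 ± 0.04 for apical minus median. The median over constitutive members of apical minus median was -0.16, -0.10 and -0.17 in medium animals 34, 39 and 42, then -0.10, -0.04 and -0.09 in low-dose animals 31, 32 and 33, and 0.04, 0.02 and -0.08 in air animals 28, 29 and 44.

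**Figure D5:**
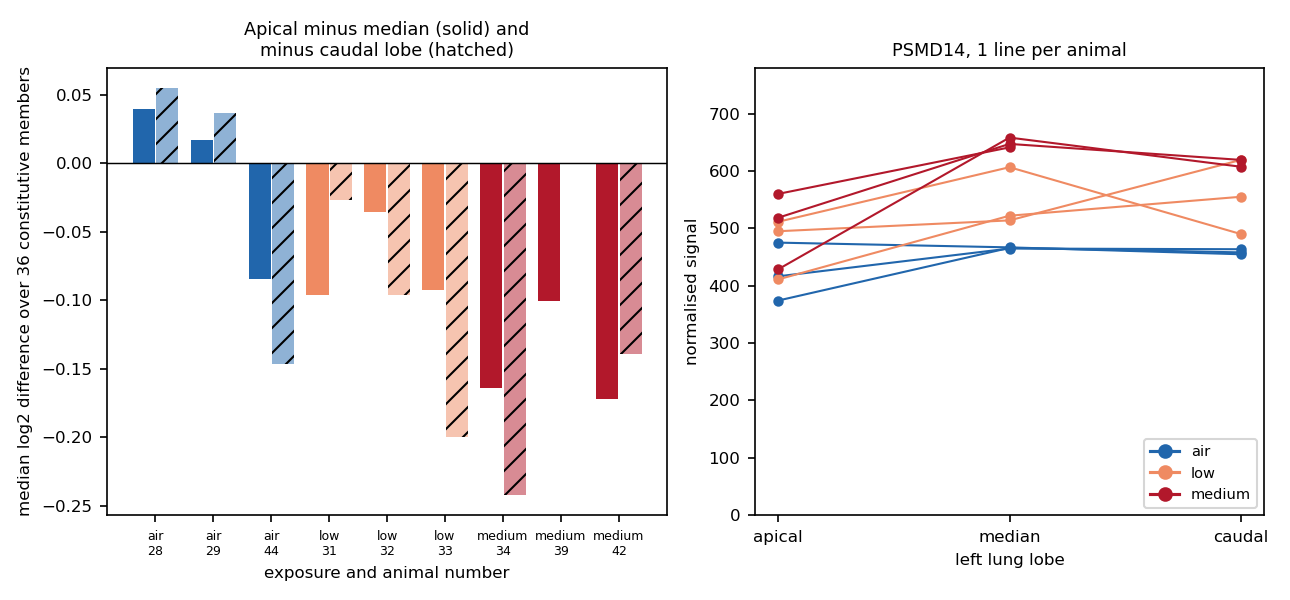
Left, median log2 difference over 36 constitutive members (y axis) between the apical and median lobe (solid) and the apical and caudal lobe (hatched) for each animal with an apical array (x axis); right, normalised PSMD14 signal (y axis, from 0) in the lobes, 1 line per animal. Air animals 28 and 29 lie above 0 on the left. Air animal 44, at -0.08 and -0.15, lies below 0, as do all medium and low-dose animals shown.

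Whether the exposure difference depended on the lobe was tested as an interaction. No member was called, against 0% of all probe sets, the lowest adjusted p of a member was 0.646, and 1 of 40 had an unadjusted p under 0.05 (PSMB3), against 7.39% of all probe sets. Medium minus air within a lobe had a median over the constitutive members of 0.00 in the apical, 0.11 in the median and 0.13 in the caudal lobe. For the immune members the medians were -0.22, -0.32 and -0.35 in the same order of lobes. No member was called within a lobe, against 0%, 0.404% and 0.00417% of all probe sets in the apical, median and caudal lobe. PSMD14 was at 0.24 ± 0.14 in the apical, 0.41 ± 0.09 in the median and 0.42 ± 0.10 in the caudal lobe.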

How the data were processed

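The authors deposited 1 table of linear signal intensities, with probe sets as rows, for 28 Affymetrix Porcine GeneChip arrays of lung lobes. RNA was extracted with the RNeasy Mini Kit and biotin labelled, per the labels' protocols. The summarization software is not given in the sources used here. The mean signal without the lowest and highest 2% was 150.02 on every array, so arrays had been scaled before deposit. After 124 control probe sets were left out, log2(signal + 16) was quantile normalized over 23999 probe sets without a brightness filter, since lower quartiles differed by 0.32 between arrays.

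The animal was the replicate. Its value was its coefficient beside lobe, and the 3 exposures were fitted together with limma 3.58.1 in R 4.3.3 (lmFit, eBayes, Benjamini-Hochberg over all probe sets). Lobes, which come from the same animals and are paired by animal number, were fitted with the animal as a block. The exposure by lobe interaction was tested with limma's F test. Standard errors and p-values rest on 3 or 4 animals a group, and this number limits the precision. Scripts were tested on simulated data. Figures used matplotlib 3.10.9.

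The members and gene lists were chosen with earlier results of these data known. Per-animal values were given for the immune members, PSMB5, PSMB6, PSMB7, any member called and the 10 others with the largest medium minus air difference. Of each gene list, the 2 genes with the smallest p were named. Other members named with a value were chosen after their values were seen. All 40 member symbols matched the RefSeq table by gene ID. Alternatives were the scaling, the offset, a brightness filter, the variance model, a random animal effect, the samples fitted, probe set averaging, an RNA quality covariate, no replicate block and leaving out each animal.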

Additional observations from a re-analysis of the deposited data

Results flagged for a closer look

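In 3 of the 40 members, 1 medium animal lay far from the other 3, as judged by its gap to the nearest animal divided by the range of the 4 medium animals (Dixon's ratio, whose critical value for 4 samples was exceeded). Chance flags about 1 in 20 groups, and 40 members were tested. PSMA2 had a ratio of 0.857, with animal 34 highest at 1197, against 1011, 1026 and 1036 in animals 39, 41 and 42. PSMC5 had a ratio of 0.831, again with animal 34 highest. PSMD12 had a ratio of 0.898, with animal 39 lowest at 298.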

How the results depend on the processing

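With 3 or 4 animals a group, counts of called probe sets moved widely with the setting, and the cause was not tested unless the setting itself gives fewer animals or probe sets. No called value changed sign. Values that were not called did, among them PSMF1 (-0.17 in medium against air, and 0.39 over the 8 animals with all lobes), PSMB7 and PSME2 in the same comparison, and small medians such as that of the immune members in low against air. In medium against low, PSMB8 was at -0.11 and reached 0.21, and PSMD11, PSMD6 and PSMG1 changed sign too. Other members did so in low against air and between lobes. Each median moved by less than the spread of the animals.

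For medium against air, 31 probe sets were called, against 53 in the brighter part, 1044 with a random animal effect (where 4 members were called, PSMB5, PSMD10, PSMD12 and PSMD14), 0 with only these groups, 2 over the 8 animals with all lobes and 92 with the RNA index as a covariate. Leaving out 1 animal gave 0 to 391 probe sets and 0 to 2 members (PSMD12 and PSMD14 without medium animal 39). For low against air, 0 were called, against 28 with a random animal effect and 0 to 2 without 1 animal. For medium against low, 1 was called, against 3 in the brighter part, 5 with a trended robust variance, 1401 with a random animal effect, 2 with only these groups, 0 with probe sets averaged per gene and 0 to 1372 without 1 animal.

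Medium against air called 97 probe sets in the median lobe, against 12 with an offset of 1, 231 in the brighter part and 0 to 398 without 1 animal. In the caudal lobe it called 1, against 0 with an offset of 1, 2 in the brighter part and 0 to 244 without 1 animal. In the apical lobe it called 0, and 0 to 1 without 1 animal.

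Apical against median lobe called 570 probe sets, against 203 with an offset of 1, 1005 in the brighter part, 39 with no replicate block, 48 over the 8 animals and 33 to 569 without 1 animal. Of the members, PSMD14 was called, against 0 members with the deposited scaling, an offset of 1, no replicate block or the 8 animals, 4 in the brighter part (PSMA4, PSMB3, PSMB6 and PSMD14) and 0 to 3 without 1 animal. Apical against caudal lobe called 40, against 19 with the deposited scaling, 5 with an offset of 1, 150 in the brighter part, 1 with no replicate block, 17 over the 8 animals and 1 to 66 without 1 animal. Median against caudal lobe called 0, against 2 over the 8 animals and 0 to 3 without 1 animal. Apart from these, the block changed no call of a member.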
